A study of Mus musculus with 18 samples.

Results

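The mouse genome holds a large family of collagen genes, and 44 of them were measured here among 19938 genes. They were chosen by symbol, as genes named Col with a chain number, and for each the brightest probe set assigned to that gene alone was used, by its mean over 18 arrays. By class they were 11 fibrillar, 6 basement membrane, 6 beaded filament, 3 short-chain network, 9 fibril-associated, 1 anchoring fibril, 4 transmembrane, 2 multiplexin and 2 other genes.

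Collagens are triple helices of chains that are hydroxylated and folded in the endoplasmic reticulum, secreted, trimmed and crosslinked. Fibrillar collagens form the fibres of the stroma, type IV forms the network of the basement membrane, and type VI forms beaded filaments in the matrix between them. In the mammary gland, epithelial cells rest on a basement membrane to which basal cells are anchored, among others, by the transmembrane collagen XVII and by collagen VII fibrils. Collagen-rich stroma is a known feature of mammary tumours.

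RNA was measured in 6 groups of 3 arrays each. The erbB2-positive fraction of the 1:50 co-culture carries the label redirected, since erbB2 was present there without phospho-erbB2, and the erbB2-positive fraction of the 1:1 co-culture is labelled cancer. The matching fractions without surface erbB2, again from 1:50 and 1:1, are labelled normal. MMTV-neu cells, a mammary tumour line in which the MMTV promoter drives neu (erbB2), are labelled cancer, and Comma-D cells, a line from normal mouse mammary epithelium, are labelled normal. Co-cultures of both lines were sorted with an antibody against erbB2 and magnetic beads, and it is not settled by the titles which line was the more abundant at 1:50. MMTV-neu cells were grown in DMEM with 10% serum. Comma-D cells and all co-cultures were grown in DMEM/F12 with 2% serum, 0.1 M HEPES, EGF at 5 ng/ml, insulin at 10 µg/ml and gentamicin at 4 µg/ml, and every medium held 1% antibiotic/antimycotic. Line and medium therefore cannot be told apart in any comparison with MMTV-neu. Every fraction was both co-cultured and sorted, so co-culture and sorting cannot be told apart in comparisons of a fraction with an unmixed line. Nothing in the labels says that replicates came from separate cultures, so p-values measure the spread between these samples, which may be technical.

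Values are deposited log2 expression, and differences are in log2 units. A gene is called higher or lower at an adjusted p under 0.05 (limma fit of all 18 arrays, Benjamini-Hochberg over all 19938 genes of a comparison). The probe set of the mouse gene Erbb2 did not follow the sorting labels, and whether it reads RNA of the neu transgene is not known. Erbb2, the gene of the sorted receptor, averaged 8.22 and 7.87 in the 1:50 and 1:1 erbB2-positive fractions, 8.27 and 7.80 in the 1:50 and 1:1 erbB2-negative fractions, 8.06 in MMTV-neu and 8.20 in Comma-D, and fractions are named here by their labels. Krt8, a luminal keratin, averaged 10.37 and 11.28 in the 1:50 and 1:1 erbB2-positive fractions, 7.90 and 10.76 in the 1:50 and 1:1 erbB2-negative fractions, 11.34 in MMTV-neu and 7.41 in Comma-D. The 1:1 erbB2-negative fraction, labelled normal, thus lay nearer MMTV-neu than Comma-D in Krt8, and the part of this in the results was not tested. Epcam, another gene of the luminal list, went the other way, at 5.88 in MMTV-neu and 9.53 in Comma-D. It averaged 9.04 and 6.84 in the 1:50 and 1:1 erbB2-positive fractions and 9.16 and 7.66 in the 1:50 and 1:1 erbB2-negative fractions. Krt14, a basal keratin, averaged 11.49 and 9.70 in the 1:50 and 1:1 erbB2-positive fractions, 11.61 and 10.98 in the 1:50 and 1:1 erbB2-negative fractions, 7.43 in MMTV-neu and 10.98 in Comma-D. The spread of all values was narrower on MMTV-neu arrays (SD 1.51 to 1.55) than on Comma-D arrays (SD 1.97 to 1.99). Genes with low signals were generally higher in MMTV-neu and genes with high signals generally lower. The part of the spread in this was not tested. The file holds no detection calls, so it is not known which of the dimmer collagen probe sets lie above background. In fractions of mixed cells, a change in the share of one cell type and a change in RNA per cell cannot be told apart.

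MMTV-neu and Comma-D differed in 40 of 44 collagen genes. In MMTV-neu, 33 collagen genes were called higher, against 56.4% of all genes, and 7 were called lower, against 30.4% of all genes. The median difference was 1.11 log2 units over collagen genes and 0.40 over all genes. The 7 lower genes were Col12a1, Col8a1, Col6a1, Col17a1, Col5a2, Col6a2 and Col1a1, and they span 5 classes. Quantile normalization left 35 higher and 5 lower (87.5% of calls higher), against 65.3% of calls higher over all genes. Centring on reference genes left 38 higher and 3 lower (92.7% of calls higher), against 89.0% over all genes. Centring moved the median of all genes by 1.34, since the reference genes themselves differed. Of the 7 measured, 6 were called lower and 1 higher in MMTV-neu, with a mean difference of -1.34. Centring is thus not a neutral scale here. Actb, read as a check, averaged 9.36 in MMTV-neu and 13.30 in Comma-D. Relative to the reference genes Col12a1, Col8a1 and Col6a1 remained lower, and Col1a1 turned higher.

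**Figure D1:**
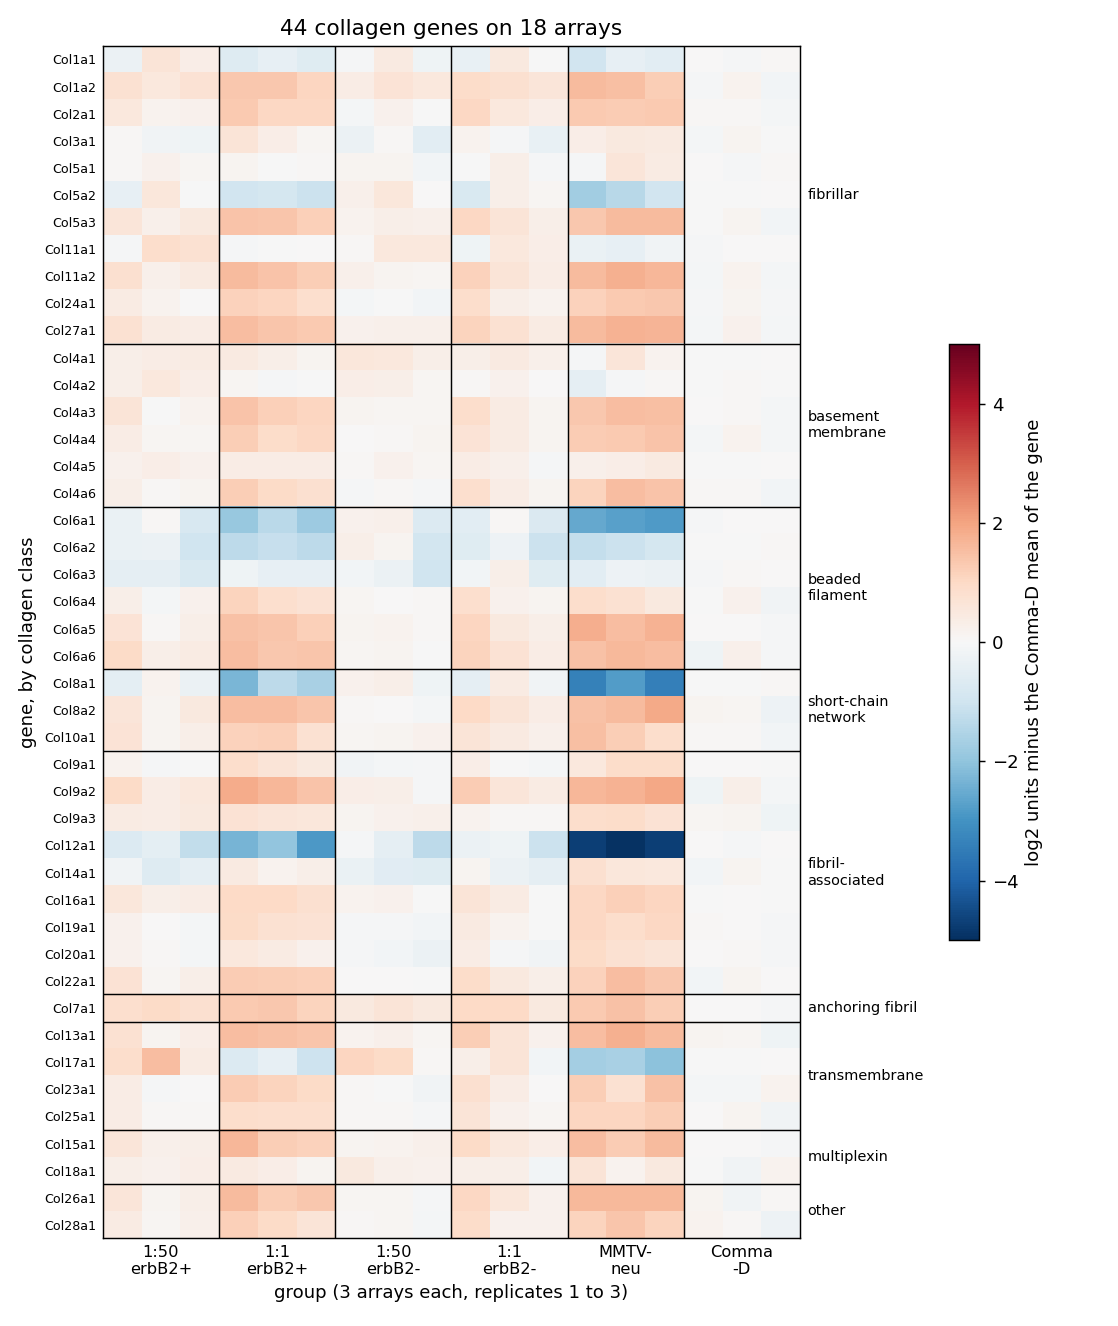
Each row is 1 of 44 collagen genes, ordered by class, and each column is 1 of 18 arrays; colour gives the log2 value minus the mean of the 3 Comma-D arrays of that gene. On the deposited scale most rows are red in MMTV-neu and in the 1:1 erbB2-positive fraction, while Col12a1, Col8a1 and Col6a1 are the darkest blue rows there.

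The fibril-associated collagen XII, which decorates the surface of collagen I fibrils, showed the widest difference of the family. Col12a1 (probe set 10595211) had log2 values of 6.62, 6.39 and 6.65 in MMTV-neu, against 11.35, 11.30 and 11.38 in Comma-D. MMTV-neu was thus 27.7-fold lower (difference -4.79 ± 0.29 SE, adjusted p = 5.91e-10, limma), and the arrays of the lines lie far apart. The fractions stood in between. Col12a1 had 10.66, 10.86 and 10.10 in the 1:50 erbB2-positive fraction and 9.01, 9.35 and 8.46 in the 1:1 erbB2-positive fraction. It had 11.29, 10.89 and 10.03 in the 1:50 erbB2-negative fraction and 11.04, 11.12 and 10.28 in the 1:1 erbB2-negative fraction. All 12 fraction arrays lay below the 3 Comma-D arrays and above the 3 MMTV-neu arrays.

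Collagen VIII is a short-chain collagen of hexagonal networks, best known from endothelium and cornea. Col8a1 (probe set 10440091) had 6.55, 7.13 and 6.54 in MMTV-neu, against 9.93, 9.90 and 9.98 in Comma-D, which is 9.17-fold lower in MMTV-neu (difference -3.20 ± 0.25 SE, adjusted p = 1.14e-08, limma). It had 9.43, 10.10 and 9.64 in the 1:50 erbB2-positive fraction and 7.67, 8.64 and 8.33 in the 1:1 erbB2-positive fraction. In the erbB2-negative fractions it had 10.15, 10.23 and 9.74 at 1:50 and 9.48, 10.33 and 9.77 at 1:1. Its partner chain Col8a2 ran the other way, with 7.75 ± 0.22 in MMTV-neu and 6.11 ± 0.21 in Comma-D (SD, n = 3 each; difference 1.63, adjusted p = 1.09e-07, limma). Col10a1, the short-chain collagen of hypertrophic cartilage, averaged 6.48 in MMTV-neu and 5.28 in Comma-D (difference 1.20, adjusted p = 4.89e-06, limma), below the median of all genes in every group.

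Collagen VI forms beaded filaments from the chains α1, α2 and α3 or related chains. Col6a1 (probe set 10370210) had 8.03, 7.86 and 7.72 in MMTV-neu, against 10.52, 10.59 and 10.58 in Comma-D, 6.48-fold lower in MMTV-neu (difference -2.70 ± 0.26 SE, adjusted p = 8.28e-08, limma). Col6a2 (probe set 10370180) had 8.43, 8.51 and 8.71 in MMTV-neu, against 9.59, 9.56 and 9.65 in Comma-D (difference -1.05 ± 0.26 SE, adjusted p = 0.00117, limma). Col6a1 and Col6a2 are neighbouring genes. Col6a3 averaged 7.36 in MMTV-neu and 7.72 in Comma-D and was not called (difference -0.36, adjusted p = 0.11, limma). The 3 other chains of the type, Col6a4, Col6a5 and Col6a6, were called higher in MMTV-neu, by 0.71, 1.70 and 1.54. In the 1:1 erbB2-positive fraction, Col6a1 had 8.68, 9.24 and 8.76 and Col6a2 had 8.28, 8.43 and 8.30, and Col6a2 averaged 8.34 there, against 8.55 in MMTV-neu.

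Collagen XVII is a transmembrane protein of hemidesmosomes, which fasten basal epithelial cells to the basement membrane. Col17a1 (probe set 10468344) had 7.42, 7.50 and 7.09 in MMTV-neu, against 9.11, 9.11 and 9.14 in Comma-D, 3.45-fold lower in MMTV-neu (difference -1.78 ± 0.28 SE, adjusted p = 1.77e-05, limma). It was higher in most fraction arrays than in Comma-D. The 1:50 erbB2-positive fraction had 10.01, 10.66 and 9.53 and the 1:50 erbB2-negative fraction 10.19, 10.08 and 9.18, all above the 3 Comma-D arrays. The 1:1 erbB2-negative fraction had 9.43, 9.78 and 8.97, and the 1:1 erbB2-positive fraction had 8.44, 8.72 and 8.07. The 3 other transmembrane genes were called higher in MMTV-neu, Col13a1 by 1.63, Col23a1 by 1.16 and Col25a1 by 1.13.

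**Figure D2:**
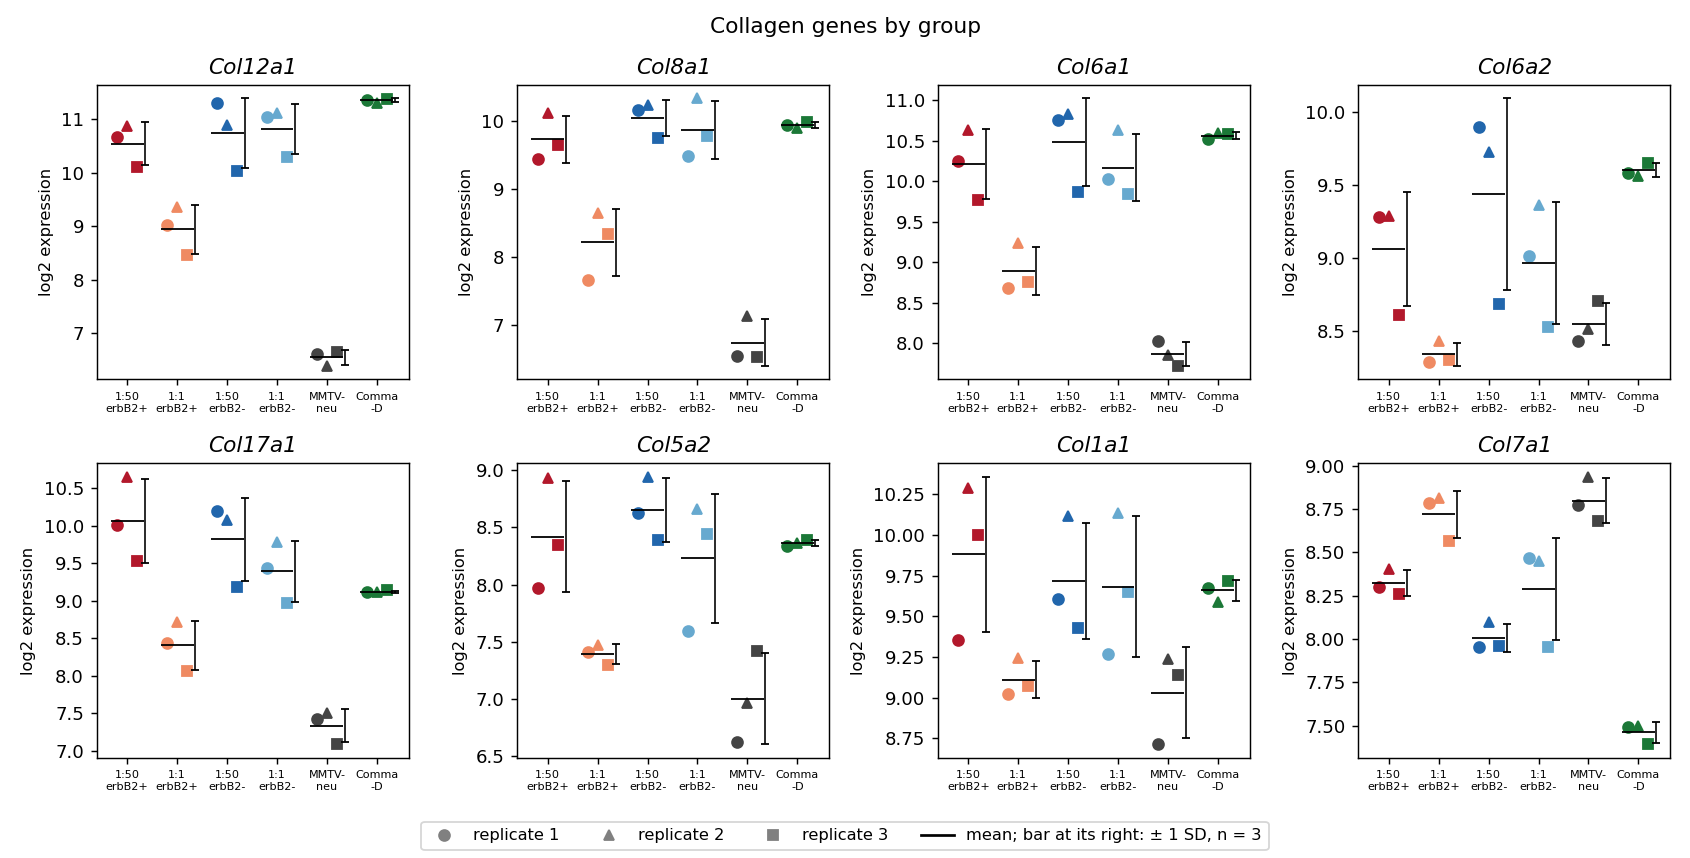
Log2 expression of 8 collagen genes in the 6 groups (3 arrays each); point shape gives the replicate number, the line is the mean and the bar beside it is ± 1 SD. Col12a1, Col8a1, Col6a1 and Col17a1 are lowest in MMTV-neu and next lowest in the 1:1 erbB2-positive fraction, and Col7a1 is lowest in Comma-D.

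Among fibrillar collagens, 8 of 11 were called higher in MMTV-neu and 2 lower. Collagen I is built from the chains of Col1a1 and Col1a2, and they differed in opposite directions. Col1a1 (probe set 10380419) had 8.71, 9.24 and 9.14 in MMTV-neu, against 9.67, 9.58 and 9.72 in Comma-D (difference -0.63 ± 0.24 SE, adjusted p = 0.0196, limma). Its direction depended on scaling, with 0.41 (adjusted p = 0.0715) under quantile normalization and 0.71 (adjusted p = 0.00696) after centring on reference genes. The call was lost without Comma-D replicate 3 or without MMTV-neu replicate 1 (adjusted p up to 0.101). Col1a2 averaged 7.98 ± 0.18 in MMTV-neu and 6.54 ± 0.15 in Comma-D (SD, n = 3 each; difference 1.44 ± 0.13 SE, adjusted p = 3.58e-08, limma). The 2 chains are on different probe sets, so their levels cannot be set against each other.

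Col5a2, a chain of the collagen V that starts collagen I fibrils, had 6.62, 6.97 and 7.42 in MMTV-neu (probe set 10354309), against 8.34, 8.36 and 8.39 in Comma-D (difference -1.36 ± 0.26 SE, adjusted p = 0.000121, limma). Its neighbouring gene Col3a1, the chain of collagen III, was higher by 0.42 (adjusted p = 0.0237), a call lost in 4 of 6 fits that left out 1 array (adjusted p up to 0.0774). Col5a1 was higher by 0.32 (adjusted p = 0.0431), a call lost in 5 of 6 such fits (adjusted p up to 0.237), and Col5a3 by 1.5 (adjusted p = 1.36e-07, limma). Col11a1 (probe set 10495449) had 7.70, 7.60 and 7.84 in MMTV-neu, against 7.96, 8.02 and 8.05 in Comma-D, and was not called (adjusted p = 0.194). The cartilage chains Col2a1 and Col11a2 were higher by 1.30 and 1.67, and Col24a1 and Col27a1 by 1.27 and 1.67.

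In the basement membrane class, the 2 most widely used chains of collagen IV did not separate the lines on the deposited scale. Col4a1 averaged 8.02 ± 0.34 in MMTV-neu and 7.77 ± 0.03 in Comma-D (SD, n = 3 each; adjusted p = 0.101, 95% interval of the difference -0.04 to 0.54). Col4a2 (probe set 10570068) had 7.94, 8.34 and 8.46 in MMTV-neu, against 8.36, 8.46 and 8.36 in Comma-D (adjusted p = 0.29, 95% interval -0.40 to 0.12). Scaling changed this. Col4a2 was higher in MMTV-neu by 0.63 (adjusted p = 0.00123) under quantile normalization and by 1.20 (adjusted p = 1.18e-05) after centring. Centring called 41 collagen genes, 37 of them among the 40 called on the deposited scale. The 4 genes not called on that scale, Col4a1, Col4a2, Col6a3 and Col11a1, were thus all called higher after centring. Col4a3, Col4a4 and Col4a6 were called higher by 1.47, 1.34 and 1.37, and Col4a5 by 0.34 (adjusted p = 0.00596, limma).

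Col4a1 and Col4a2 are neighbours that are read in opposite directions from a shared start region, and the region is shown because one start window covers part of the other. The windows run from 250 bases before to 50 after each start (RefSeq, build GRCm38.p6). The Col4a2 window lies at chr8:11312555-11312854 on the plus strand and the Col4a1 window at chr8:11312777-11313076 on the minus strand, and capitals mark the 78 bases they share.
Col4a2: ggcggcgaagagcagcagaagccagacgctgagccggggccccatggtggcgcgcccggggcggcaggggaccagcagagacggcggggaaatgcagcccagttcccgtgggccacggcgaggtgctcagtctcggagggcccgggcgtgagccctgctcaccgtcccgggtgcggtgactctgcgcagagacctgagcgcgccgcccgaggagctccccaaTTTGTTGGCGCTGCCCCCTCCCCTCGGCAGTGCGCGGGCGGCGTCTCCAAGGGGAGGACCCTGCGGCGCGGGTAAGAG

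Col7a1, the collagen of anchoring fibrils, and 8 of 9 fibril-associated genes were higher in MMTV-neu. Col7a1 (probe set 10589212) had 8.78, 8.94 and 8.68 in MMTV-neu, against 7.49, 7.50 and 7.39 in Comma-D (difference 1.34 ± 0.13 SE, adjusted p = 7.1e-08, limma). Col9a2 (probe set 10507742), a chain of the cartilage collagen IX, had 8.73, 8.78 and 9.0 in MMTV-neu, against 6.83, 7.36 and 6.97 in Comma-D (difference 1.78 ± 0.21 SE, adjusted p = 7.66e-07, limma). Col9a3 (probe set 10479423) had 9.19, 9.22 and 9.04 in MMTV-neu, against 8.40, 8.44 and 8.11 in Comma-D (difference 0.84 ± 0.10 SE, adjusted p = 6.96e-07, limma). The MMTV-neu arrays of these 3 genes lay above all Comma-D arrays. Col16a1, Col19a1, Col20a1, Col22a1, Col14a1 and Col9a1 were called higher by 0.64 to 1.35. The multiplexins, which carry antiangiogenic fragments such as endostatin, were higher too, Col15a1 by 1.46 and Col18a1 by 0.44, as were Col26a1 by 1.62 and Col28a1 by 1.20.

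These directions went with signal level. Of all genes in the brightest of 4 equal bins by mean over 18 arrays, 13.1% were called higher in MMTV-neu and 73.2% lower, while 13 collagen genes of that bin gave 3 higher and 7 lower. In the next bin 40.4% of all genes were called higher, and 20 of 21 collagen genes there were. In the bin below it 82.7% of all genes were called higher, as were 10 of 10 collagen genes, and no collagen gene lay in the dimmest bin. A probe set's signal depends on its probes as well as on abundance, and the part of signal level in these calls was not tested.

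**Figure D3:**
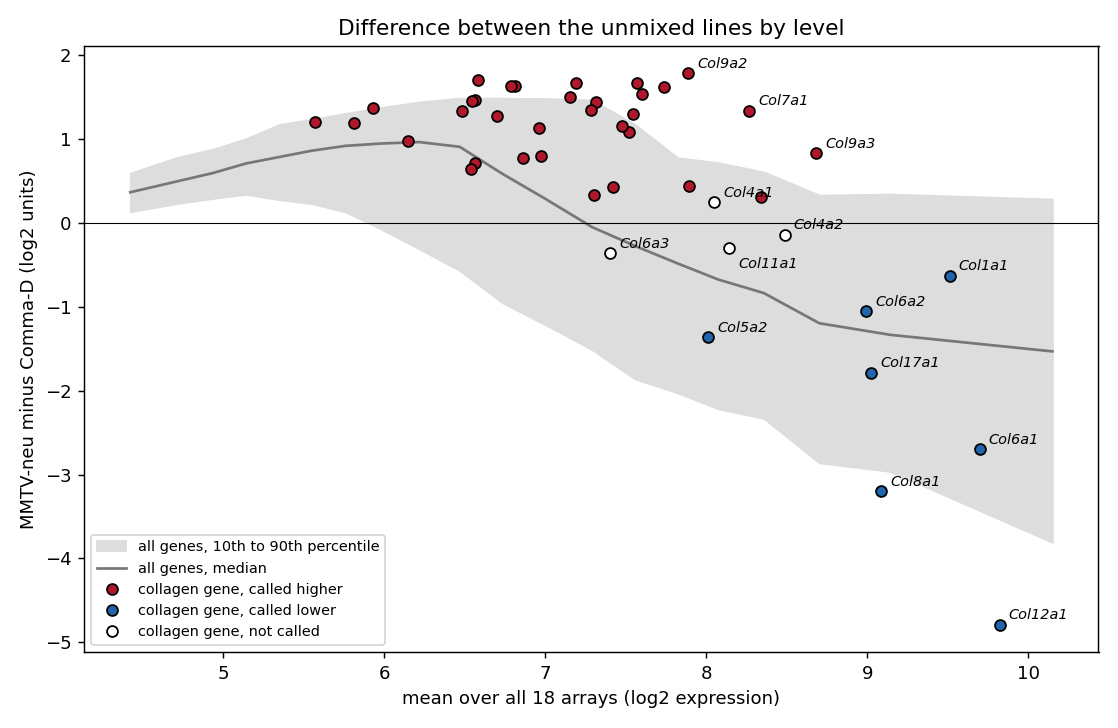
Difference between MMTV-neu and Comma-D (log2 units) against the mean over 18 arrays for 44 collagen genes (points), with the median and the 10th to 90th percentile of all genes in 20 bins of level. On the deposited scale Col12a1 lies far below the band of all genes at its level and Col8a1 just below it, while Col9a2, Col7a1 and Col9a3 lie above it.

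The 1:50 erbB2-positive fraction was compared with MMTV-neu, the line whose sorted surface marker it carries. This comparison shares the MMTV-neu arrays with that of the lines, with opposite sign, so the 2 are not independent. The fraction had 8 collagen genes called higher, against 25.8% of all genes, and 30 called lower, against 57.6% of all genes. The median difference was -0.80 over collagen genes and -0.40 over all genes. In the brightest bin, 8 of 13 collagen genes were called higher and 2 lower, against 67.4% and 13.8% of all genes there. In the next bin 0 of 21 were called higher and 18 lower, against 31.2% and 40.6%. The part of signal level in this and the later comparisons was not tested. The 8 higher genes were Col12a1 (3.99 ± 0.29 SE), Col8a1 (2.99 ± 0.25), Col17a1 (2.73 ± 0.28), Col6a1 (2.35 ± 0.26), Col5a2 (1.41 ± 0.26), Col1a1 (0.85 ± 0.24), Col11a1 (0.82 ± 0.21) and Col4a2 (0.53 ± 0.12). Adjusted p-values of these 8 ran to 0.00316 for Col1a1 (limma). Quantile normalization gave 5 higher and 33 lower (13.2% of calls higher, against 33.7% over all genes). Centring gave 4 higher and 36 lower (10% of calls higher, against 10.4% over all genes). Col12a1, Col8a1, Col17a1 and Col6a1 were higher under both. Col1a1 turned to -0.20 under centring, and Col4a2 turned to -0.12 and -0.52 under quantile normalization and centring.

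Col6a2 had 9.28, 9.29 and 8.61 in the 1:50 erbB2-positive fraction and was not called against MMTV-neu (difference 0.51, adjusted p = 0.0767, limma). The widest falls were Col6a5 (-1.37), Col26a1 (-1.27), Col8a2 (-1.23), Col13a1 (-1.22) and Col4a6 (-1.21). Col1a2 and Col3a1 were lower by 0.78 and 0.54 log2 units, and Col4a1, Col5a1 and Col18a1 were not called (differences 0.10, -0.19 and -0.17). Col4a1 turned to -0.41 (adjusted p = 0.041) under quantile normalization and -0.95 (adjusted p = 0.000318) under centring.

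Against Comma-D, the same fraction differed in 3 of 44 collagen genes, all higher, where 1.17% of all genes were called higher and 4.54% lower. Col7a1 had 8.30, 8.41 and 8.26 in the 1:50 erbB2-positive fraction, against 7.49, 7.50 and 7.39 in Comma-D, with no overlap (difference 0.86 ± 0.13 SE, adjusted p = 0.00046, limma). Col1a2 averaged 7.20 ± 0.12 in the fraction and 6.54 ± 0.15 in Comma-D (SD, n = 3 each; difference 0.66, adjusted p = 0.00485, limma). Col9a3 had 8.72, 8.68 and 8.79 in the fraction, against 8.40, 8.44 and 8.11 in Comma-D (difference 0.41 ± 0.10 SE, adjusted p = 0.0186, limma). The calls on Col7a1 and Col1a2 held in all 6 fits that left out 1 array, while that on Col9a3 was lost without Comma-D replicate 3 or without replicate 1 or 3 of the fraction (adjusted p up to 0.122). Quantile normalization ended the call on Col1a2 (difference 0.56, adjusted p = 0.0503), and centring (adjusted p = 0.0926) and the trended prior (adjusted p = 0.06) ended that on Col9a3, while Col7a1 kept its call under all of these. At an unadjusted p under 0.05, 22 collagen genes passed, and the share of all genes that did was not counted. Leaving out replicate 2 of the fraction gave 5 called genes.

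Col17a1 averaged 10.06 ± 0.56 in the 1:50 erbB2-positive fraction and 9.12 ± 0.02 in Comma-D (SD, n = 3 each). The difference of 0.94 had an adjusted p of 0.0605 (limma), and its 95% interval was 0.35 to 1.54. It was called without the dimmest 40% of genes (adjusted p = 0.0423), with array weights (0.47, adjusted p = 0.0468), after centring (1.24, adjusted p = 0.0485), with only the compared groups (adjusted p = 0.0395) and without replicate 3 of the fraction (1.21, adjusted p = 0.0317), and the other fits that left out 1 array gave an adjusted p up to 0.165. Col12a1 was lower by 0.80 log2 units without a call (adjusted p = 0.116), and Col6a2 averaged 9.06 in the fraction and 9.60 in Comma-D (adjusted p = 0.233). Col8a1, Col6a1, Col5a2 and Col1a1 had differences of -0.21, -0.35, 0.05 and 0.22 with adjusted p of 0.439 or more (limma), and the 95% interval for Col8a1 was -0.74 to 0.32. Col3a1, Col4a1, Col4a2, Col5a1 and Col18a1 were not called (differences -0.11, 0.34, 0.39, 0.12 and 0.27).

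Start windows of Col6a1, Col8a1, Col17a1 and Col7a1 are shown because the first 3 are among the 7 genes that were lower in MMTV-neu than in Comma-D and Col7a1 was higher. RefSeq windows (GRCm38.p6) matched 35 of 44 members by symbol, as 38 windows, and none was matched for Col12a1, Col1a1 or Col5a2. Capitals mark exact matches on either strand to 4 motifs that do not overlap here. The TATA box was searched as TATAAA, and the GC box, bound by Sp1 proteins, as GGGCGG. The CCAAT box was searched by the letters of its name, and the AP-1 site, bound by Fos and Jun proteins, as TGANTCA.
Col6a1, chr10:76725995-76726294, minus strand: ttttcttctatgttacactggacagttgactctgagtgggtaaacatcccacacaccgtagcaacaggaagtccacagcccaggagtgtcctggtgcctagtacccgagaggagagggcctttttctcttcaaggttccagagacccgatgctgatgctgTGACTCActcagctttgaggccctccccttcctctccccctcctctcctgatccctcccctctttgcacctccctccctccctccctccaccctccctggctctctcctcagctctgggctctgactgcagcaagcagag
Col8a1, chr16:57754688-57754987, minus strand: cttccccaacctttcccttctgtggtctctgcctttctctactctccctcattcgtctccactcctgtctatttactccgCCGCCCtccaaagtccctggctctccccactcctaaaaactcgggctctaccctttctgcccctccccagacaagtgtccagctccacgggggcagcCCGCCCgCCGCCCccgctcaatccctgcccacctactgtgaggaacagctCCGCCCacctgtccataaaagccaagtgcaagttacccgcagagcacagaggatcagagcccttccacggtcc
Col17a1, chr19:47691993-47692292, minus strand: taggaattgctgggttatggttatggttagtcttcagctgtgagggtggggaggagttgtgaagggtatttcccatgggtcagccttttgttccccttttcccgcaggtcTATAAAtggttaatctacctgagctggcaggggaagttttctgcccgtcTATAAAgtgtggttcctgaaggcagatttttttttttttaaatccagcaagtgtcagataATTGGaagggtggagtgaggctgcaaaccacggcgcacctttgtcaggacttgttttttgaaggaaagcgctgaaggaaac
Col7a1, chr9:108953336-108953635, plus strand: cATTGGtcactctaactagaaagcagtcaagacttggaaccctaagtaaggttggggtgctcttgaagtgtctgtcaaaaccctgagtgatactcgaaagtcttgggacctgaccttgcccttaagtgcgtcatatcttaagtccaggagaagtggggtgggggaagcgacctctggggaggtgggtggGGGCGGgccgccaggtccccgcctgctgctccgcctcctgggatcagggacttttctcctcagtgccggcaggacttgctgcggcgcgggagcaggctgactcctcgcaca

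Col6a1 held 1 AP-1 site and no other of the 4 motifs, Col8a1 held 4 GC boxes, Col17a1 held 2 TATA boxes and 1 CCAAT box, and Col7a1 held 1 GC box and 1 CCAAT box. Col6a2, lower in MMTV-neu too, had 2 windows, which are not printed, with 1 and 3 GC boxes and no other of the 4 motifs. Over all collagen windows, the GC box was in 23 of 38 (60.5%), against 35.7% of 32851 mouse windows, with a median GC content of 59.8% in collagen windows and 52.7% in all. The TATA box was in 13.2% of collagen windows and 13.6% of all, the CCAAT box in 34.2% and 37.4%, and the AP-1 site in 2.63% and 7.81%. A match is a run of letters and does not show that a factor binds there.

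The 1:50 and 1:1 erbB2-positive fractions, sorted for the same marker, differed in 38 of 44 collagen genes. In the 1:50 fraction, 9 were called higher, against 27.4% of all genes, and 29 lower, against 44.0% of all genes. The median difference was -0.66 over collagen genes and -0.19 over all genes. In the brightest bin, 9 of 13 collagen genes were called higher and 1 lower, against 68.8% and 10.4% of all genes there. In the next bin 0 of 21 were called higher and 18 lower, against 34.6% and 32.5%. The higher genes were Col17a1 (1.66 ± 0.28 SE), Col12a1 (1.60 ± 0.29), Col8a1 (1.51 ± 0.25), Col6a1 (1.32 ± 0.26), Col5a2 (1.02 ± 0.26), Col1a1 (0.77 ± 0.24), Col6a2 (0.72 ± 0.26), Col11a1 (0.53 ± 0.21) and Col4a2 (0.38 ± 0.12). Quantile normalization gave 5 higher and 32 lower, and centring gave 3 higher and 35 lower. Col17a1, Col12a1 and Col8a1 stayed higher under both, while Col1a1 (-0.02 under centring) and Col4a2 (-0.19 and -0.41) changed sign. Without replicate 2 of the 1:50 fraction, Col1a1 and Col4a2 were no longer called (adjusted p 0.0564 and 0.065).

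The widest falls were Col8a2 (-1.09), Col26a1 (-1.05), Col13a1 (-1.05), Col9a2 (-1.02), Col6a5 (-1.01) and Col23a1 (-1.01). Col1a2 was lower by 0.61 log2 units and Col7a1 by 0.40. Col3a1 was lower by 0.46, a call lost in 3 of 6 fits that left out 1 array (adjusted p up to 0.118). Col4a1, Col5a1 and Col18a1 were not called (differences 0.06, 0.05 and -0.04), with Col4a1 at -0.73 and Col5a1 at -0.74 under centring and Col5a1 at -0.47 under quantile normalization.

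The 1:1 erbB2-positive fraction differed from Comma-D in 36 collagen genes. It had 29 called higher, against 45.8% of all genes, and 7 lower, against 32.5% of all genes. The median difference was 0.91 over collagen genes and 0.19 over all genes. In the brightest bin, 2 of 13 collagen genes were called higher and 7 lower, against 10.6% and 75.1% of all genes there. In the next bin 18 of 21 were called higher and 0 lower, against 34.3% and 43.2%. The lower genes were Col12a1 (-2.40 ± 0.29 SE), Col8a1 (-1.72 ± 0.25), Col6a1 (-1.67 ± 0.26), Col6a2 (-1.26 ± 0.26), Col5a2 (-0.97 ± 0.26), Col17a1 (-0.71 ± 0.28) and Col1a1 (-0.55 ± 0.24). This comparison shares the Comma-D arrays with that of the lines. It shares the 1:1 erbB2-positive arrays with the comparison of the erbB2-positive fractions and with that within 1:1. Quantile normalization gave 35 higher and 3 lower (92.1% of calls higher, against 61.2% over all genes). Centring gave 38 higher and 3 lower (92.7% of calls higher, against 87.8% over all genes). The 3 lower genes were Col12a1, Col8a1 and Col6a1 in both. Col1a1 turned to 0.32 and 0.53 and Col17a1 to 0.08 and 0.37 under quantile normalization and centring. The call on Col1a1 was lost in all 6 fits that left out 1 array (adjusted p up to 0.105) and that on Col17a1 in 5 of 6 (adjusted p up to 0.123). The widest rises were Col9a2 (1.65), Col8a2 (1.5), Col13a1 (1.46) and Col6a6 (1.42).

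The place of the erbB2-positive fractions between the lines depended on the scale. With MMTV-neu at 0% and Comma-D at 100%, the 1:1 erbB2-positive fraction stood on the log2 scale at 49.8% for Col12a1, 46.1% for Col8a1, 37.9% for Col6a1, 60.1% for Col17a1, 28.8% for Col5a2, 12.9% for Col1a1 and -19.8% for Col6a2. On the linear scale, Col12a1 stood at 15.9%, Col6a1 at 18.8%, Col8a1 at 21.7%, Col5a2 at 19.9%, Col1a1 at 10.6% and Col6a2 at -12.5%. Col17a1 stood at 45.1%. On the log2 scale the 1:50 erbB2-positive fraction stood at 83.2% for Col12a1, 87.0% for Col6a1, 93.5% for Col8a1 and 48.6% for Col6a2. On the linear scale it stood at 55.7% for Col12a1, 74.5% for Col6a1, 84.9% for Col8a1, 39.6% for Col6a2 and 106% for Col5a2, and beyond Comma-D at 147% for Col1a1 and 230% for Col17a1. These positions come from group means and carry no test. No collagen gene was called above both lines in any fraction, against 0.466% of all genes, and none below both, against 2.05% of all genes. Without the dimmest 40% of genes, or after centring, 1 gene lay above both lines, Col17a1 in the 1:50 erbB2-positive fraction.

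The erbB2-negative fractions, labelled normal, were compared with Comma-D. In the 1:50 erbB2-negative fraction, 2 collagen genes were called higher, against 0.592% of all genes, and none lower, against 1.08% of all genes. While 8 passed an unadjusted p under 0.05, the share of all genes that did was not counted. The 2 called genes were Col7a1 (difference 0.54, adjusted p = 0.034, limma) and Col1a2 (difference 0.52, adjusted p = 0.0444, limma). Col7a1 had 7.95, 8.10 and 7.96 in the fraction, against 7.49, 7.50 and 7.39 in Comma-D. Leaving out any 1 of the 6 arrays gave a count of 0, or of 1 without replicate 1 of the fraction, where Col1a2 kept its call. The adjusted p reached 0.175 for Col7a1 and 0.243 for Col1a2. Col1a1, Col3a1, Col4a1, Col4a2, Col5a1, Col6a1, Col12a1, Col17a1 and Col18a1 were not called, with differences from -0.61 for Col12a1 to 0.70 for Col17a1.

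In the 1:1 erbB2-negative fraction 20 collagen genes were called higher than in Comma-D, against 14.9% of all genes, and none lower, against 20.9% of all genes. Col7a1 had 8.47, 8.45 and 7.95 in the fraction (difference 0.83, adjusted p = 0.000278), and Col1a2 was higher by 0.78 (adjusted p = 0.000511, limma). Col9a2, Col27a1, Col6a6, Col11a2, Col13a1 and Col8a2 were higher by 0.68 to 0.77. Calls on Col9a2 and Col13a1 were lost in 2 of 6 fits that left out 1 array (adjusted p up to 0.0829). The count of 20 fell to 8 without replicate 1 of the fraction, to 12 without Comma-D replicate 1 and to 13 without Comma-D replicate 3. Col12a1, Col8a1, Col6a1 and Col17a1 were not called (differences -0.53, -0.08, -0.39 and 0.27), nor were Col1a1, Col3a1, Col4a1, Col4a2, Col5a1 and Col18a1.

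Within each co-culture the sorted fractions were set against each other. At 1:50, the erbB2-positive and erbB2-negative fractions differed in 0 of 44 collagen genes, where 0.01% of all genes were called in either direction (limma). An unadjusted p under 0.05 was reached by 5 collagen genes, and the share of all genes was not counted. The differences ran from -0.38 to 0.47. Col7a1 had 8.30, 8.41 and 8.26 in the erbB2-positive fraction, against 7.95, 8.10 and 7.96 in the erbB2-negative fraction, without overlap (difference 0.32, adjusted p = 0.312, limma). Col12a1 differed by -0.20 (adjusted p = 0.759), with overlapping arrays.

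At 1:1, the fractions differed in 37 collagen genes. In the erbB2-positive fraction, 30 were called higher, against 35.2% of all genes, and 7 lower, against 21.0% of all genes. The median difference was 0.52 over collagen genes and 0.16 over all genes. In the brightest bin, 2 of 13 collagen genes were called higher and 7 lower, against 9.07% and 58.1% of all genes there. In the next bin 18 of 21 were called higher and 0 lower, against 30.0% and 22.9%. The lower genes were Col12a1 (-1.87 ± 0.29 SE), Col8a1 (-1.65 ± 0.25), Col6a1 (-1.28 ± 0.26), Col17a1 (-0.99 ± 0.28), Col5a2 (-0.84 ± 0.26), Col6a2 (-0.63 ± 0.26) and Col1a1 (-0.57 ± 0.24). Arrays did not overlap between these fractions for at least Col12a1, Col8a1, Col6a1, Col6a2 and Col17a1. The share of all genes without overlap was not counted. Quantile normalization gave 27 higher and 4 lower (87.1% of calls higher, against 58.4% over all genes). Centring gave 36 higher and 2 lower (94.7% of calls higher, against 92.1% over all genes). Col12a1 and Col8a1 were lower under both, and Col1a1 was at 0.12 under centring. Of 6 fits that left out 1 array, 1 lost the call on Col17a1 (without 1:1 erbB2-negative replicate 2, adjusted p = 0.0502), 2 lost that on Col5a2 (without 1:1 erbB2-negative replicate 2 or 3, adjusted p up to 0.079) and 5 lost that on Col1a1 (adjusted p up to 0.246). Col1a2 was higher by 0.49, Col9a2 by 0.88, Col8a2 by 0.82 and Col26a1 by 0.79. Col3a1 was higher by 0.43, a call lost in 4 of 6 fits that left out 1 array (adjusted p up to 0.193). Col4a1, Col4a2 and Col5a1 were not called (differences -0.05, -0.08 and -0.01) and were higher by 0.64, 0.60 and 0.68 under centring.

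Whether the gap between fractions depended on the ratio was tested as an interaction, the erbB2-positive minus erbB2-negative difference at 1:50 minus that at 1:1. It was called for 1 collagen gene, against 2.75% of all genes in either direction. In the brightest bin it was called higher for 1 of 13 collagen genes, against 9.07% of all genes there. An unadjusted p under 0.05 was reached by 15 collagen genes, and the share of all genes was not counted. Col12a1 had an interaction of 1.67 ± 0.41 SE (adjusted p = 0.0401, limma), from a difference of -0.20 at 1:50 and -1.87 at 1:1. The call was lost in 6 of 12 fits that left out 1 array (interaction 1.32 to 1.95, adjusted p up to 0.135), under quantile normalization and centring (adjusted p 0.113 and 0.0935), without the MMTV-neu arrays (0.0609) and with only the compared groups (0.129). Col8a1, Col17a1 and Col6a1 had interactions of 1.33, 1.23 and 1.01 that were not called (adjusted p 0.0547, 0.102 and 0.13). With the replicate number as a block in a fit of the 12 fraction arrays, 8 collagen genes were called, among them Col12a1 (adjusted p = 0.00275), Col17a1 (0.00709), Col8a1 (0.00993) and Col6a1 (0.0174). The share of all genes called in that fit was not counted, so the 8 are not shown to be particular to collagen genes. Same-numbered arrays deviated together by over 0.1 in 17 of 18 correlations between fractions, the exception being 0.074. The count of 1 was 25 without 1:1 erbB2-negative replicate 1, 3 without 1:50 erbB2-positive replicate 1 and 2 without 1:1 erbB2-positive replicate 2. It was 0 without 1:50 erbB2-negative replicate 2 or 3, 1:1 erbB2-negative replicate 2, 1:50 erbB2-positive replicate 2 or 1:1 erbB2-positive replicate 1 or 3. Shares of all genes were not counted for the fits that left out 1 array either.

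Arrays of different fractions with the same replicate number had some levels in common. Replicate 3 was the lowest array in each of the 4 fractions for 6 collagen genes, among them Col12a1, Col17a1 and Col3a1, while replicate 1 was so for 1 gene and replicate 2 for none. Replicate 1 was the highest array in each of the 4 fractions for 10 collagen genes, replicate 2 for 4 and replicate 3 for 0. These orders were counted for collagen genes only, so they are not shown to be particular to them. Over all genes, deviations of same-numbered arrays of 2 fractions had correlations of 0.074 to 0.849. For Col6a2, replicate 3 had 8.61, 8.69 and 8.53 in the 1:50 erbB2-positive, 1:50 erbB2-negative and 1:1 erbB2-negative fractions, and the 6 other arrays of these fractions had 9.01 to 9.90. The labels do not say what a replicate number marks.

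Enzymes and receptors of collagen were read beside the chains, as 39 measured genes in 3 groups chosen by known role. MMTV-neu had 10 of them called higher than Comma-D, against 56.4% of all genes, and 27 lower, against 30.4%. The median difference was -1.17, against 0.40 over all genes. Centring on reference genes gave 17 higher and 14 lower, where 89.0% of calls over all genes were higher. Among folding and modifying enzymes 2 were higher and 15 lower. P4hb, a subunit of prolyl 4-hydroxylase, was lower by 3.24 log2 units, the prolyl isomerase gene Ppib by 2.97 and the lysyl hydroxylase genes Plod1 and Plod3 by 2.77 and 2.44. Among genes of processing and crosslinking 4 were higher and 7 lower. Lox, which encodes the crosslinking lysyl oxidase, had 6.06, 6.26 and 6.30 in MMTV-neu, against 10.91, 10.91 and 10.88 in Comma-D (difference -4.70 ± 0.26 SE, adjusted p = 1.96e-10, limma). Pcolce, an enhancer of procollagen cleavage, was lower by 2.71, and Bmp1 (the procollagen C-proteinase) and Loxl3 fell by 2.39 and 2.34.

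Among receptors 4 were higher and 5 lower in MMTV-neu. Itgb1, the β1 subunit of all collagen-binding integrins, averaged 6.56 ± 0.12 in MMTV-neu and 10.84 ± 0.05 in Comma-D (SD, n = 3 each; difference -4.28, adjusted p = 1.17e-10, limma). Itga1 was lower by 1.99 and the receptor kinase gene Ddr1 by 1.66, while Itga2, another partner of Itgb1 in collagen binding, was higher by 1.60. P4hb, Ppib, Plod1, Lox, Pcolce and Itgb1 were also called lower, and Itga2 higher, under quantile normalization and centring.

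The 1:50 erbB2-positive fraction had 24 of 39 called higher than MMTV-neu, against 25.8% of all genes, and 12 lower, against 57.6%. Centring gave 11 higher and 17 lower, where 10.4% of calls over all genes were higher. Itgb1 was higher by 4.13, Lox by 3.83, Bmp1 by 2.60 and Ppib by 2.42. Against Comma-D, 0 were called higher, where 1.17% of all genes were, and 10 lower, where 4.54% were. An unadjusted p under 0.05 was reached by 17, and the share of all genes was not counted. Quantile normalization left 5 of the 39 lower and centring 0, where 406 and 222 of all 19938 genes were called in either direction. The lowest were Ddr2, a collagen receptor kinase (-1.08 ± 0.13 SE, adjusted p = 5.45e-05), Fkbp14 (-0.99), Itga1 (-0.97), the uptake receptor gene Mrc2 (-0.90) and P4ha1 (-0.89). The call on Fkbp14 was lost in 5 of 6 fits that left out 1 array (adjusted p up to 0.116). Lox averaged 10.04 in the fraction and 10.90 in Comma-D. The 1:50 erbB2-negative fraction differed from Comma-D in Ddr2 (-1.01) and Mrc2 (-0.98) alone among the 39. Against the 1:1 erbB2-positive fraction, the 1:50 erbB2-positive fraction had 23 called higher, against 27.4% of all genes, and 6 lower, against 44.0%. The higher genes were led by Lox (1.92) and Itgb1 (1.90). Under centring the counts were 13 and 16, where 11.7% of calls over all genes were higher. Within the 1:1 co-culture, the erbB2-positive fraction had 5 called higher than the erbB2-negative fraction, against 35.2% of all genes, and 22 lower, against 21.0%. Lox was at -2.09 and Itgb1 at -1.75. Under centring the counts were 14 and 13, where 92.1% of calls over all genes were higher. The interaction was called for 7 of the 39, Plod3, P3h2, Crtap, Bmp1, Pcolce, Lox and Itgb1, with values from 0.91 to 1.57, where 2.75% of all genes were called. None of these 7 was called after centring (adjusted p 0.0935 to 0.149, limma), where 2 of all genes were called, or with only the compared groups. All 7 were called under quantile normalization, where 946 of all genes were. Fits that left out 1 array called 2 to 7 of them, with 2 in each fit without 1:50 erbB2-negative replicate 3, 1:1 erbB2-negative replicate 2 or 3, or 1:50 erbB2-positive replicate 2.

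**Figure D4:**
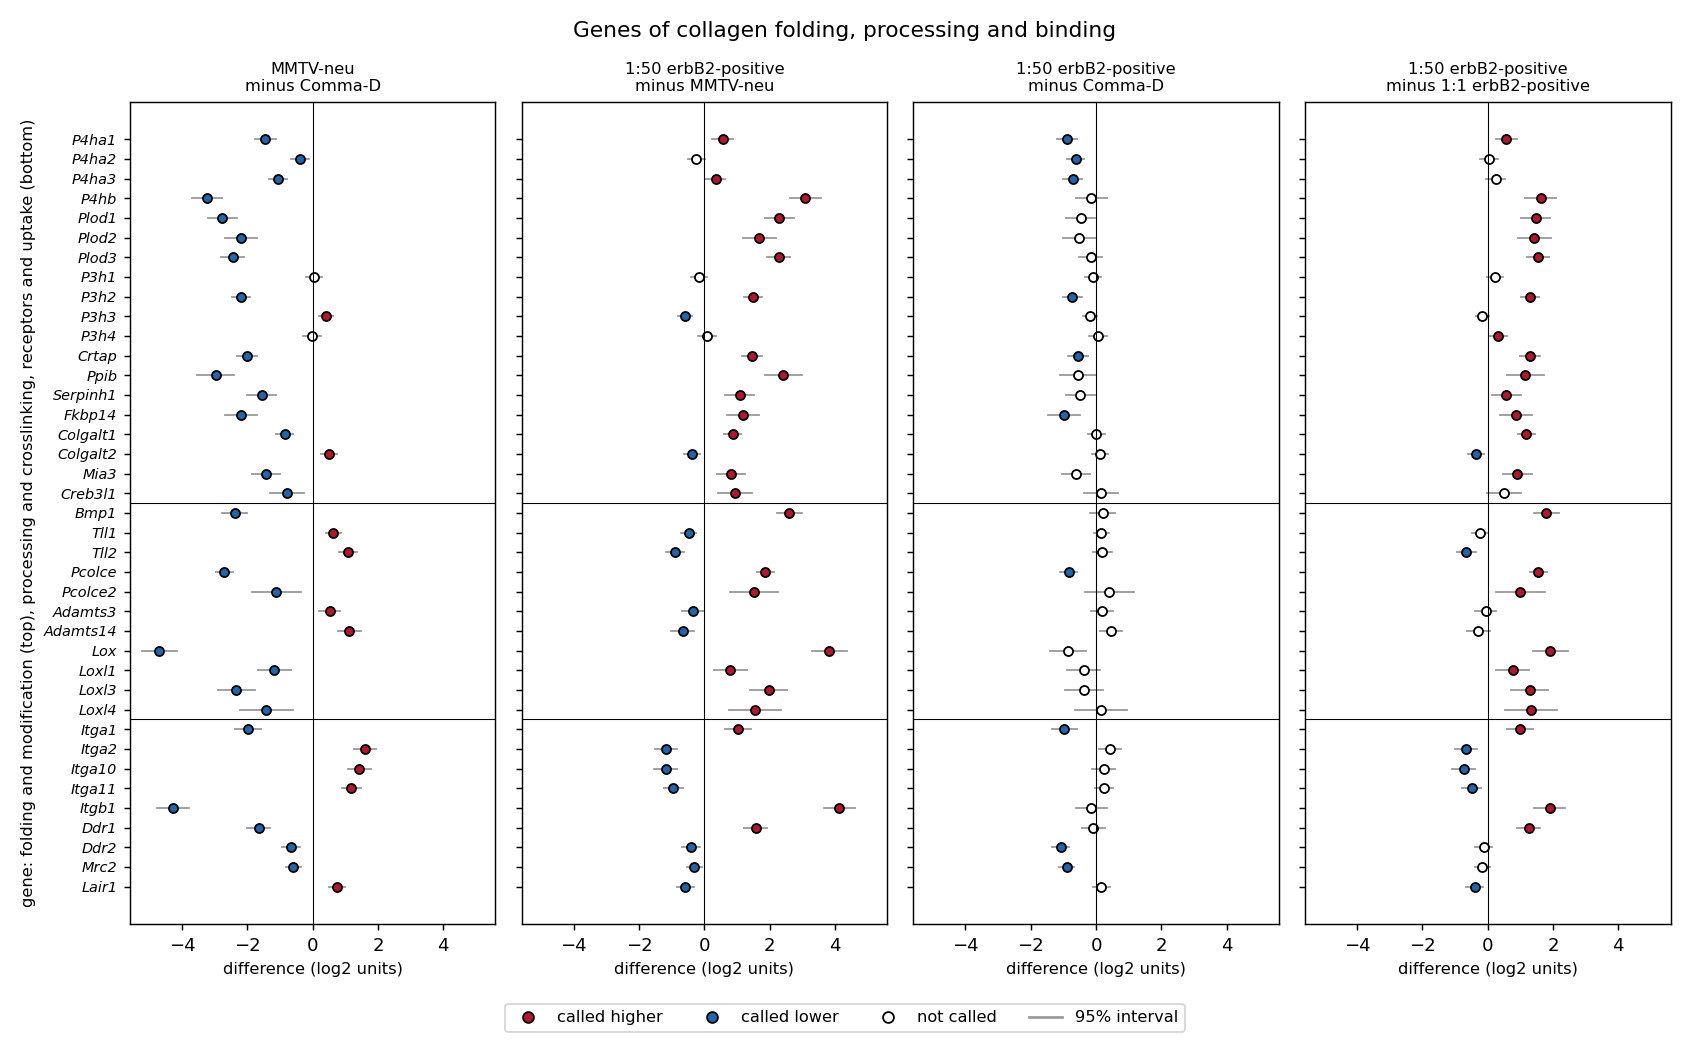
Difference in log2 units for 39 genes of collagen folding, processing and binding in 4 comparisons, with 95% intervals; filled points were called. On the deposited scale most genes lie left of 0 in MMTV-neu minus Comma-D and right of 0 in the second panel, where MMTV-neu is subtracted from the 1:50 erbB2-positive fraction, with Lox and Itgb1 farthest out.

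Some markers of cell types moved with these genes. Of 13 luminal markers, 7 were higher and 5 lower in MMTV-neu than in Comma-D, against 56.4% and 30.4% of all genes. Their mean per array was 7.97 to 8.04 in MMTV-neu and 7.70 to 7.83 in Comma-D. Of 14 basal markers, 2 were higher and 10 lower in MMTV-neu than in Comma-D, against 56.4% and 30.4% of all genes. In the brightest of the 4 bins of level, 13.1% of all genes were higher and 73.2% lower. The basal mean per array was 7.32 to 7.54 in MMTV-neu and 9.28 to 9.30 in Comma-D. It was 9.37 to 9.81 in the 1:50 erbB2-positive fraction and 8.27 to 8.75 in the 1:1 erbB2-positive fraction. Of 14 fibroblast markers, 8 were higher and 5 lower in MMTV-neu, against 56.4% and 30.4% of all genes. Their means per array were 6.10 to 6.36 over the 4 fractions, 6.15 to 6.26 in MMTV-neu and 6.59 to 6.62 in Comma-D. Every fraction array thus lay below every Comma-D array in this list. Higher in MMTV-neu were also 12 of 12 endothelial, 9 of 11 leukocyte and 8 of 9 adipocyte markers, against 56.4% of all genes, and against 89.6% and 82.7% of all genes in the dimmest and next dimmest of the 4 bins of level. Of 21 genes of handling stress 18 were lower in MMTV-neu, against 30.4% of all genes and 73.2% of those in the brightest bin. Their means per array were 8.30 to 9.28 over the 4 fractions, 8.10 to 8.27 in MMTV-neu and 9.72 to 9.77 in Comma-D. The part of these markers in the collagen results was not tested.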

How the data were processed

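RNA from 18 samples, 3 in each of 6 groups, was hybridised to mouse gene arrays. The deposited values are log2 expression per probe set, made with RMA, R 3.1.2 and limma per the submitters' processing notes. RMA corrects background, normalizes between arrays and summarises probes, so residual differences in the spread between arrays carry into every comparison. The files give no detection call and no depth, and the 3 arrays per group limit precision.

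Of 35556 probe sets, 21789 had 1 gene, 1621 several and 12146 none in the platform annotation, and 19938 genes were kept, each by its single-gene probe set with the highest mean. All comparisons came from 1 fit of 18 arrays with 12 residual degrees of freedom (lmFit and eBayes of limma 3.58.1, run in R 4.3.3). The fit was also checked on simulated arrays with means and spread taken from these data. Their noise was independent between arrays, so shared deviations of same-numbered arrays were not part of that check. Values in every array are given for collagen genes whose highest group mean was at least 2 log2 units above the median of all genes. Differences are named for the 12 largest called changes in each main comparison, the 8 largest in others, a fixed set of 10 collagen genes, and the 4 largest in each list of collagen enzymes and receptors. Some genes outside this rule are named after their values were seen. Members and lists were chosen with earlier results of these data known.

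Alternatives were the mean of probe sets, a filter on dim genes, a trended and robust prior, array weights, quantile normalization, centring on 7 measured reference genes (11 planned), the replicate number as a block, fewer groups in the fit, stricter thresholds and leaving out each array. Same-numbered arrays deviated together by over 0.1 in every correlation of the 3 comparisons of 2 fractions (0.148 to 0.702). With an unmixed line this held in 2 of 27 correlations. The number was used only in the block alternatives. The reported comparisons, the interaction and their adjusted p-values take no account of it. The reference genes themselves differed between groups, so centring is not a neutral scale. Promoter windows are from RefSeq.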

Additional observations from a re-analysis of the deposited data

Results flagged for a closer look

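The difference between erbB2-positive and erbB2-negative fractions in Col12a1 was called as unequal between the co-culture ratios on the deposited scale. The interaction was 1.67 (adjusted p = 0.0401, limma), from a difference of -0.20 at 1:50 and -1.87 at 1:1. This was the 1 collagen gene with a called test of the difference between ratios. The call was lost in 6 of 12 fits that left out 1 array, under quantile normalization (adjusted p = 0.113) and centring (0.0935), without the MMTV-neu arrays (0.0609) and with only the compared groups (0.129). Basal markers moved with it, with means per array of 9.37 to 9.81 and 8.27 to 8.75 in the 1:50 and 1:1 erbB2-positive fractions, against 9.57 to 9.82 and 9.12 to 9.57 in the 1:50 and 1:1 erbB2-negative fractions. The part of these markers in the result was not tested.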

How the results depend on the processing

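Of 196 named pairs of gene and comparison, 129 were called, and 92 of these were called under every alternative run. With single arrays left out, the collagen genes called were 37 to 40 (MMTV-neu minus Comma-D), 38 to 39 (1:50 erbB2-positive minus MMTV-neu), 2 to 5 (minus Comma-D), 32 to 37 (minus 1:1 erbB2-positive), 33 to 37 (1:1 erbB2-positive minus Comma-D), 0 to 1 and 8 to 25 (1:50 and 1:1 erbB2-negative minus Comma-D), 0 and 26 to 37 (within 1:50 and 1:1), 0 to 25 (interaction) and 0 to 3 (outside both lines). Requiring at least 1 log2 unit left 20, 0, 11 and 23 genes in the 1:50 erbB2-positive comparisons with MMTV-neu, Comma-D and the 1:1 erbB2-positive fraction and in 1:1 erbB2-positive minus Comma-D, 0 and 0 for the erbB2-negative fractions, and 3 within 1:1. For 1:50 erbB2-positive minus Comma-D (3 genes) the count was 5 without the dimmest 40%, 32 with array weights, 9 with the replicate block and 11 with only the compared groups. For 1:50 erbB2-negative minus Comma-D (2 genes) it was 1 without the dimmest 40%, 9 with array weights, 4 with only the compared groups, and 0 with the trended prior, quantile normalization, centring or an adjusted p under 0.01. For 1:1 erbB2-negative minus Comma-D (20 genes) it was 37 with array weights, 12 with only the compared groups and 9 at an adjusted p under 0.01. Within 1:50, array weights gave 16. The interaction (1 gene) gave 2 without the dimmest 40%, 38 with array weights, 5 with the replicate block, 8 with the replicate block in the 12 fraction arrays, and 0 with quantile normalization, centring, only the compared groups, no MMTV-neu arrays or an adjusted p under 0.01. Outside both lines (0 genes) were 1 without the dimmest 40%, 8 with array weights, 1 with centring and 2 with the replicate block. Array weights came from an estimate that stopped before convergence. Apart from quantile normalization and centring, calls over all genes were not counted under the alternatives. Signs turned under quantile normalization and centring for Col1a1 (0.41, 0.71) and Col4a2 (0.63, 1.20) in MMTV-neu minus Comma-D, Col4a1 (-0.41, -0.95) and Col4a2 (-0.12, -0.52) in 1:50 erbB2-positive minus MMTV-neu, Col4a2 (-0.19, -0.41) and Col5a1 (-0.47, -0.74) in 1:50 minus 1:1 erbB2-positive, and Col1a1 (0.32, 0.53) and Col17a1 (0.081, 0.37) in 1:1 erbB2-positive minus Comma-D. Under centring alone they turned for Col1a1 (-0.20) in 1:50 erbB2-positive minus MMTV-neu, Col1a1 (-0.020) and Col4a1 (-0.73) in 1:50 minus 1:1 erbB2-positive, and Col1a1 (0.12), Col4a1 (0.64), Col4a2 (0.60) and Col5a1 (0.68) within 1:1. The causes were not tested. Same-numbered arrays of different fractions deviated together by over 0.1 in 17 of 18 correlations (0.074 to 0.849), the exception being replicate 2 of the 1:1 erbB2-positive and 1:50 erbB2-negative fractions, and in 2 of 27 with an unmixed line. The block changed no named call in the 3 comparisons of 2 fractions. In 1:50 erbB2-positive minus Comma-D, which is not paired, it called Col17a1 (adjusted p = 0.00373) and Col12a1 (0.032).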
